A study of Mus musculus with 16 samples.

Results

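The genes described here are the mouse cytosolic ribosomal protein genes, which encode the proteins of the small (40S) and the large (60S) subunit of the ribosome. They were chosen by name alone: every gene whose symbol is Rps or Rpl followed by a number, with an optional a or x, together with Rpsa, Rplp0, Rplp1 and Rplp2. The naming rule itself used no measured value, although the family was chosen with earlier results of these data known. On the array, 76 genes of 22911 with a probe carried such a name, with 134 probes. Of these, 75 genes were well above background on all 16 arrays, and 43 of them had more than 1 such probe. The brightest such probe, by its mean over the 16 arrays, stood for each gene, so the choice of probe did use measured signals. The remaining gene, Rpl37, had 1 probe, which was well above background on 2 arrays and was not tested. Genes of ribosome parts that do not carry such a name, among them Fau and Rack1, are given separately.

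Signals came from 16 one-colour arrays of primary podocytes, the epithelial cells of the kidney filter, grown out of isolated glomeruli of male Jcl:ICR mice in serum-containing medium. Each of 4 groups held 4 samples. Tsc2Δpodocyte mice carried floxed Tsc2 alleles and a Cre transgene driven by a podocyte-specific promoter, and Tsc2flox/flox mice carried the floxed alleles without Cre, both untreated at 4 weeks of age. The groups Tsc2Δpodocyte + Rapamycin and Tsc2flox/flox + Rapamycin came from 5-week-old mice that had received rapamycin for 1 week; the drug is not stated for the culture medium. No arrays of mice with Cre and normal Tsc2 were analysed here, so Cre and the deletion cannot be told apart. Untreated and treated samples lay on different slides, so drug, age and slide cannot be told apart either, whereas each genotype comparison was made within 1 slide, with the genotypes in separate rows. Whether the 4 samples of a group are from 4 mice is not given, so p-values measure the spread between these samples only, which may be technical.

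Ribosomal protein mRNAs are the best known members of the TOP messages, mRNAs whose first base is a C followed by an unbroken run of pyrimidines (C or U). TSC2 restrains the kinase complex mTORC1, rapamycin inhibits that complex, and active mTORC1 releases TOP messages from the repressor LARP1 and raises their translation. This control acts on the use of the message by ribosomes, which an array of total RNA does not measure. The values below are mRNA levels.

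The sequence feature that gives TOP messages their name can be read at the annotated starts. RefSeq promoter sequences (GRCm38.p6) were matched for 56 of the 76 genes, with 66 annotated starts. A start that is C and is followed by at least 4 more C or T bases was present at 13 of these 66 starts (19.7%), each of a different gene, against 2.51% of all 32851 promoters. The 13 genes were Rpl14, Rpl15, Rpl28, Rpl35, Rpl35a, Rpl38, Rplp2, Rps6, Rps10, Rps15a, Rps18, Rps21 and Rps27, with runs of 5 to 13 bases. An annotated start a few bases away from the base used in these cells would hide such a run, and starts were not measured here. The following starts belong to genes on which the results below turn. Each sequence holds 15 bases before and 15 bases from the annotated start on the strand of the gene, and capitals mark the pyrimidine run that begins at the start base.
Rps6, chr4:86857353-86857382, minus strand: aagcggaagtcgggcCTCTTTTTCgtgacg
Rps15a, chr7:118116133-118116162, minus strand: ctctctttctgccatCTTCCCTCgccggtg
Rps18, chr17:33955651-33955680, minus strand: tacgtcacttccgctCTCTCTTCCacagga
Rpl15, chr14:18270972-18271001, minus strand: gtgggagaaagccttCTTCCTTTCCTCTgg
Rps24, chr14:24490663-24490692, plus strand: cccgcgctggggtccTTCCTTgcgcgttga
Rpl13a, chr7:45128731-45128760, minus strand: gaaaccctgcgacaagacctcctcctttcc
Rps6, Rps15a, Rps18 and Rpl15 show the feature in full. The first annotated Rps24 start has a run of 6 pyrimidines that opens with T, and the annotated Rpl13a start has none at its first base. In the 300 bases around each start, from 250 before to 50 after it, the letters CCGGAAG (the core of sites for ETS-family factors, searched on both strands) were present at 24 of 66 starts (36.4%) against 8.86% of all promoters. The palindrome CACGTG, the E-box read by MYC proteins, was present at 8 of 66 (12.1%) against 7.15%, and 2 starts held both. These matches are descriptions and do not show binding.

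Tsc2 was lower on every array labelled Tsc2Δpodocyte than on every array labelled Tsc2flox/flox, by 1.35 on the log2 scale untreated (log2 fold change -1.35, standard error 0.22, adjusted p = 0.00097 from limma) and by less after rapamycin (log2 fold change -0.99, standard error 0.22, adjusted p = 0.0124). Whether this probe lies in the deleted exons was not determined. Of 10 podocyte markers all were tested, and 0 passed between the untreated genotypes. Their summed signal ranged from 7.11 to 8.03 in untreated Tsc2Δpodocyte and from 6.9 to 7.27 in untreated Tsc2flox/flox samples. The podocyte transcription factor Wt1 lay between 4.72 and 6.0 (normalized log2 signal), whereas Nphs1, which encodes nephrin, lay between -5.08 and -0.87. Markers of other glomerular cells were also present: 3 of 7 mesangial and smooth muscle markers rose and 2 of 6 parietal epithelial markers fell with the deletion in untreated cells. Over all genes, 10.3% were called higher and 9.2% lower in that comparison. The summed signal of the 7 mesangial markers ranged from 9.45 to 9.91 in Tsc2Δpodocyte and from 9.28 to 9.59 in Tsc2flox/flox samples, and that of the 6 parietal markers from 4.91 to 6.83 and from 6.04 to 7.28. Among 8 macrophage and leukocyte markers Cd68 rose. The tubule markers Umod, Slc34a1 and Slc12a1 were below the detection rule, and of the other 3, Lrp2 fell with the deletion. After rapamycin, 1 podocyte and 1 mesangial marker were higher and 2 parietal markers and Lrp2 lower in Tsc2Δpodocyte samples. Of all genes 6.2% were called higher and 4.97% lower there. The part of other cell types in the values below was not tested, and in bulk RNA fewer cells of a type and less RNA per cell cannot be told apart.

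The ribosomal protein genes were bright and steady. Their mean normalized signals over the 16 arrays, given as log2 above the 75th percentile of the array, lay between 5.21 for Rpl5, a carrier of 5S ribosomal RNA, and 8.42 for Rps18, with a median of 7.05. These values also carry each probe's own efficiency, so their order is not an order of mRNA amount. No spot was saturated. Rpl5, Rps7, Rpl22, Rps4x and Rpl24 had the dimmest probes, and Rpl14, Rplp2, Rps10, Rpl41 and Rps18 the brightest. The SD between samples of a group had a median of 0.096 on the log2 scale over the 75 genes, against 0.203 over all 14097 genes tested.

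The median of the 75 genes on an array was nearly the same in the 4 groups. It was 7.09, 7.02, 7.02 and 7.03 in the Tsc2Δpodocyte samples (7.04 ± 0.03, SD, n = 4). In the Tsc2flox/flox samples it was 7.11, 7.23, 6.98 and 7.10 (7.11 ± 0.10, SD, n = 4). After rapamycin it was 6.97, 7.08, 6.96 and 7.02 in Tsc2Δpodocyte samples (7.01 ± 0.06, SD, n = 4) and 7.14, 6.99, 6.99 and 6.93 in Tsc2flox/flox samples (7.02 ± 0.09, SD, n = 4). The ranges of all 4 groups overlap. The genes moved together from sample to sample: in untreated Tsc2flox/flox replicate 2 all 75 lay above their own 16-array mean, and in treated Tsc2flox/flox replicate 4 only 1 did. Over the 2775 pairs of these genes, the correlation of deviations from the group means had a median of 0.51, and 95.1% of pairs were above 0. All pairs share the same 16 arrays and their scaling factors.

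**Figure D1:**
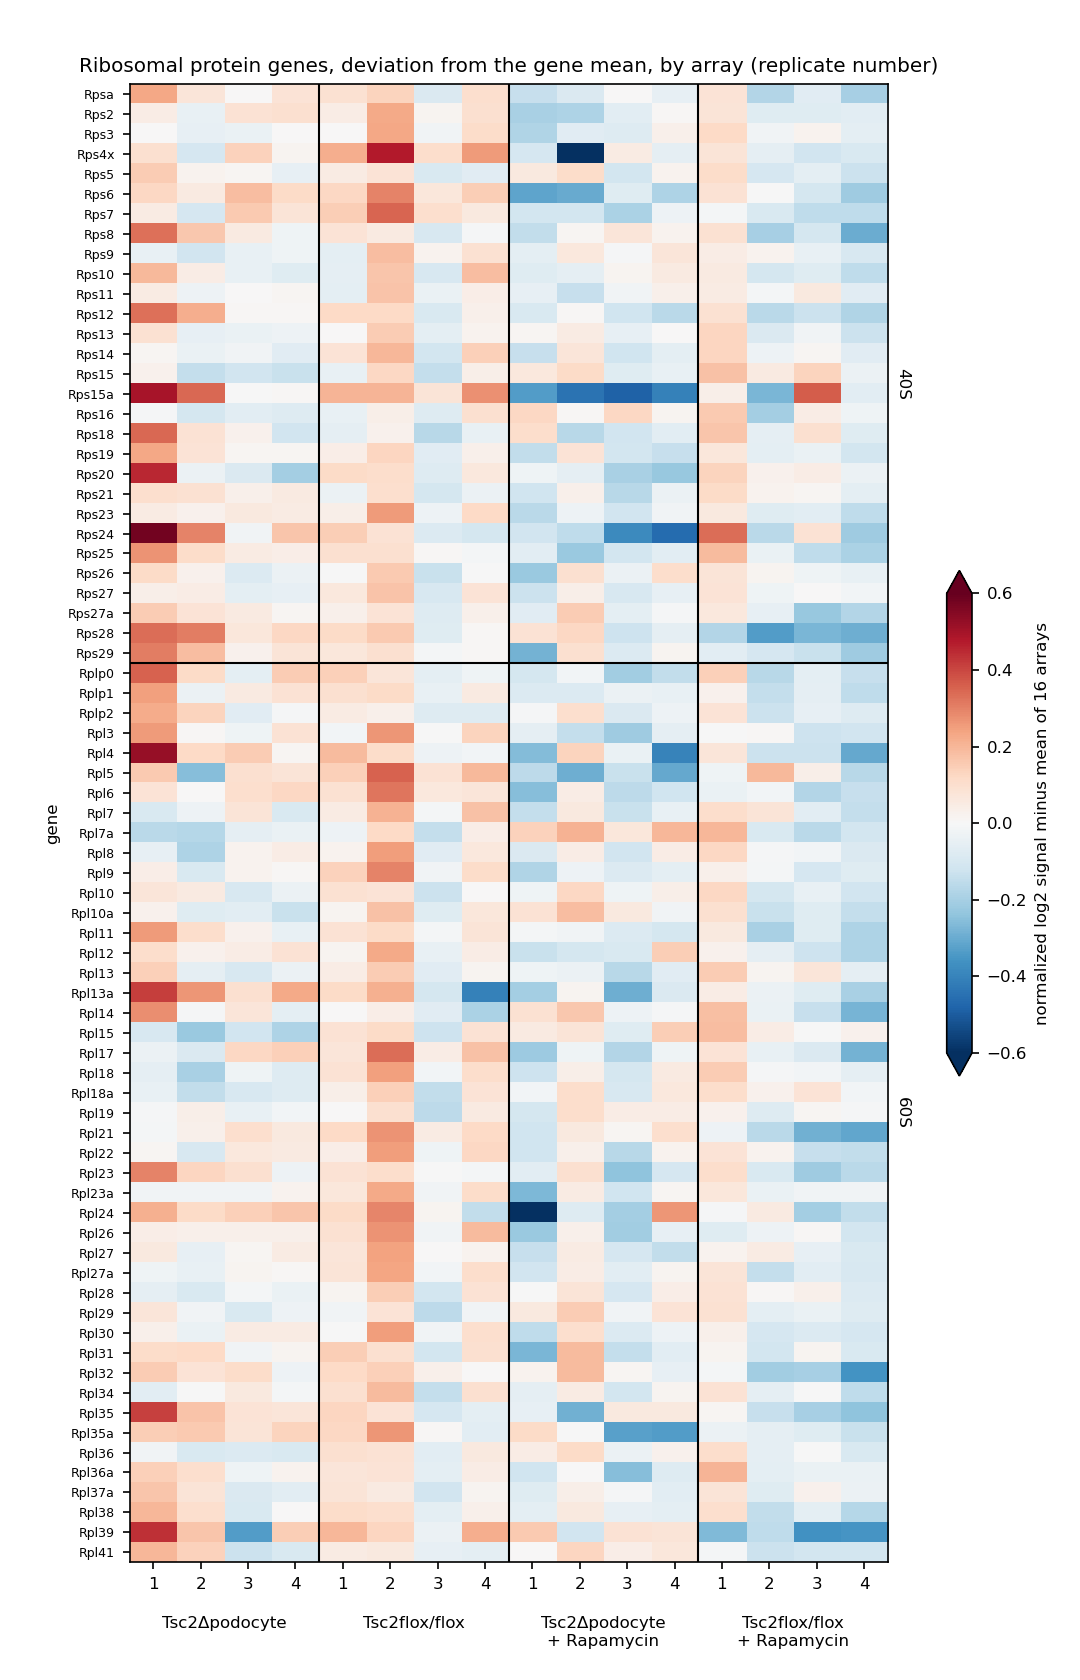
Normalized log2 signal of 74 of the 75 ribosomal protein genes on each of the 16 arrays, as the difference from that gene's mean over all arrays (red above, blue below). Columns are arrays by group and replicate number, and rows are genes, with 29 small-subunit (40S) genes above the 45 large-subunit (60S) genes; whole columns are redder or bluer, such as Tsc2flox/flox replicate 2, while Rps15a is blue in all 4 Tsc2Δpodocyte + Rapamycin samples.

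With scaling to the 75th percentile, ribosomal protein mRNAs of untreated Tsc2Δpodocyte cells lay close to the control level. None of the 75 genes rose or fell at an adjusted p under 0.05, whereas 10.3% of all genes tested were called higher and 9.2% lower in the same comparison. The median log2 fold change of the 75 was -0.02, against -0.01 over all genes, and it took the other sign, at 0.01, with each array centred on its median or with the deposited values. Values ran from -0.23 to 0.29, with quartiles of -0.10 and 0.04, against -0.23 and 0.22 for all genes. At an unadjusted p under 0.05 there were 3 genes from limma, against 34.3% of all genes, and 3 from the methods' t-test, of which 0 held after adjustment. The small-subunit genes had a median of -0.01 (n = 30) and the large-subunit genes of -0.02 (n = 45).

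The precision was enough to bound these differences. The standard error of a gene's log2 fold change had a median of 0.082, against 0.142 over all genes, and the 95% confidence intervals of all 75 genes lay inside a 1.5-fold change in either direction. The lowest bound was -0.58, for Rps4x, and the highest 0.56, for Rpl13a. This statement rests on the scaling to the 75th percentile: with quantile normalization 17 of the 75 genes were called lower, against 9.71% of all genes under the same scaling, the median was -0.16, and the largest fall was 0.34 on the log2 scale, for Rpl18. The direction of the whole family in this comparison therefore depends on how the arrays were scaled.

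**Figure D2:**
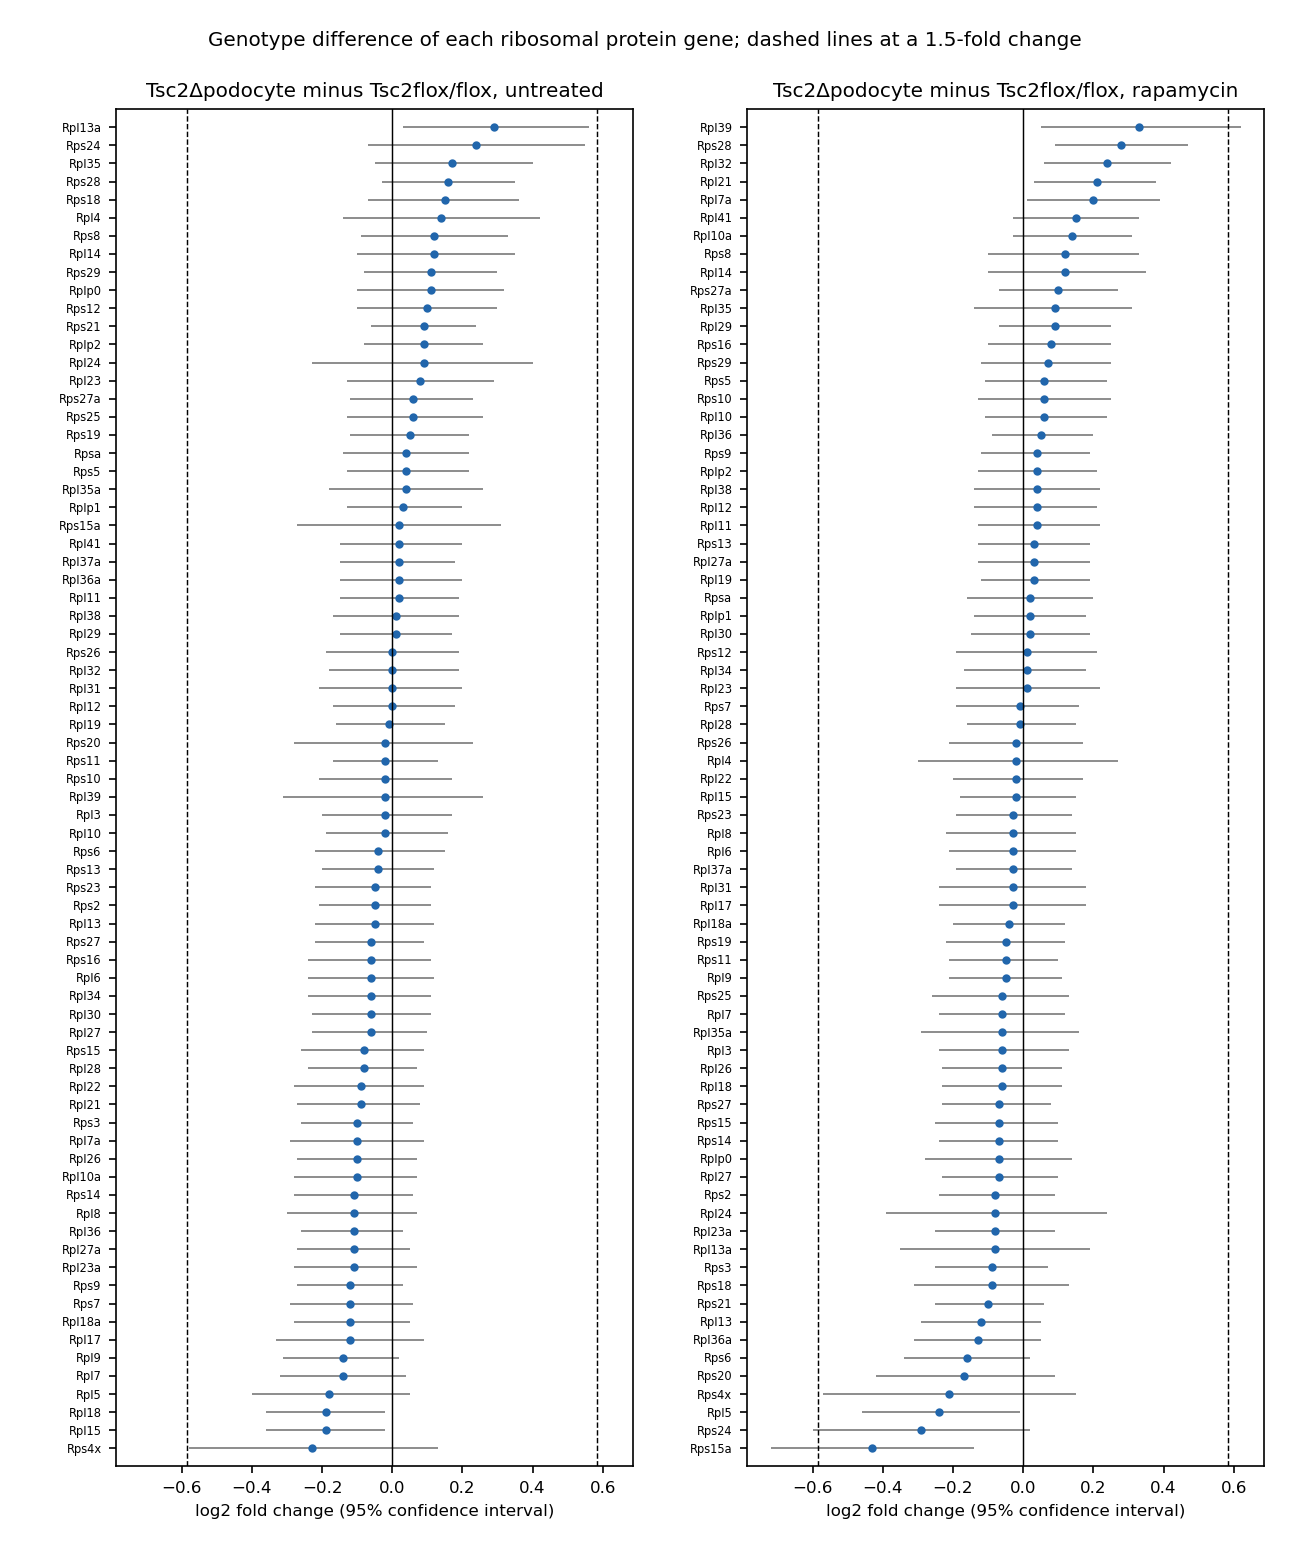
Log2 fold change of 74 of the 75 ribosomal protein genes between genotypes (points) with its 95% confidence interval (bars), untreated on the left and after rapamycin on the right, each sorted by value, with dashed lines at a 1.5-fold change. On the left all 74 intervals shown lie between the dashed lines, and on the right those of Rpl39, Rps15a and Rps24 cross one; with quantile normalization the median on the left moved from -0.02 to -0.16 and that on the right from -0.02 to -0.10.

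The genes with known roles outside or at the edge of the ribosome gave the same picture. Rps6, the ribosomal protein phosphorylated by S6 kinase downstream of mTORC1, had 6.95, 6.88, 7.01 and 6.94 in Tsc2Δpodocyte and 6.95, 7.12, 6.89 and 6.97 in Tsc2flox/flox samples, a log2 fold change of -0.04 (95% interval -0.22 to 0.15). The genotypes overlapped. For Rpl5 and Rpl11, which bind MDM2 when ribosome assembly is disturbed, the log2 fold changes were -0.18 (-0.40 to 0.05) and 0.02 (-0.15 to 0.19). Rplp0, Rplp1 and Rplp2, the proteins of the stalk that recruits elongation factors, had 0.11, 0.03 and 0.09, with intervals that all include 0. Rpsa, also known as the laminin receptor, had 0.04, and Rps19, the gene most often mutated in Diamond-Blackfan anaemia, 0.05. Rps3, which also serves in DNA repair, had -0.10, Rps27a, made as a fusion with ubiquitin, 0.06, Rps27 -0.06, Rpl10, which joins the large subunit late in its assembly, -0.02, and Rpl22 -0.09. None of these passed the test.

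The highest fitted value belonged to Rpl13a, a large-subunit protein with a known role in the silencing of inflammatory mRNAs. Its signals were 6.51, 6.36, 6.19 and 6.32 in Tsc2Δpodocyte and 6.21, 6.31, 5.99 and 5.69 in Tsc2flox/flox samples, which gave 0.29 on the log2 scale (standard error 0.125, adjusted p = 0.119 from limma; exact permutation test, two-sided, p = 0.114). The groups overlap, and Tsc2flox/flox replicate 4 is the lowest. The next were Rps24 (0.24), Rpl35 (0.17), Rps28 (0.16), Rps18 (0.15) and Rpl4 (0.14). Rpl18 was the only gene of the 75 whose groups did not overlap, against 13.5% of all genes in each direction, with 6.61, 6.47, 6.64 and 6.59 in Tsc2Δpodocyte and 6.75, 6.91, 6.65 and 6.77 in Tsc2flox/flox samples (log2 fold change -0.19, adjusted p = 0.111). Rpl15 had the smallest p (log2 fold change -0.19, adjusted p = 0.106), Rps4x, on the X chromosome, the lowest value (-0.23), and Rpl5, Rpl9 and Rpl7 followed at -0.18, -0.14 and -0.14. With quantile normalization Rpl15, Rpl18, Rpl9 and Rpl7 were among the 17 called lower, at -0.33, -0.34, -0.28 and -0.27.

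The 43 genes with several probes allowed the comparison to be read again. Among 57 further probes of these genes, 0 were higher and 3 lower in untreated Tsc2Δpodocyte cells at an adjusted p under 0.05. Over all genes, at 1 probe per gene, 10.3% were called higher and 9.2% lower. The 3 lower probes were the second probe of Rpl23a (log2 fold change -0.31, adjusted p = 0.014, against -0.11 for the brightest), the second probe of Rpl18 (-0.29, adjusted p = 0.028, against -0.19) and 1 of 3 probes of Rps24. The range between a gene's probes had a median of 0.09, and in 15 of the 43 genes the probes differed in sign. Ribosomal protein genes have many processed pseudogenes, and whether a probe also binds their transcripts was not tested.

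Rps24 showed the widest spread between probes. Its mRNA is spliced differently at the 3′ end in different tissues, and its 3 probes carry the accessions of different RefSeq transcripts. The probe of NM_207635 read 7.78, 7.5, 7.18 and 7.37 in Tsc2Δpodocyte and 7.35, 7.29, 7.12 and 7.10 in Tsc2flox/flox samples (log2 fold change 0.24, adjusted p = 0.262). The probe of NM_011297 read 6.98, 6.99, 6.88 and 6.87 against 7.39, 7.41, 7.05 and 7.16 (log2 fold change -0.32, adjusted p = 0.0395), and that of NM_207634 had a log2 fold change of 0.14. The first of these probes was higher and the second lower in the deleted cells. On each array the first minus the second was 0.80, 0.51, 0.30 and 0.50 in Tsc2Δpodocyte and -0.03, -0.12, 0.06 and -0.06 in Tsc2flox/flox samples, so that these differences did not overlap between the genotypes. After rapamycin they were 0.33, 0.08, -0.09 and -0.18 in Tsc2Δpodocyte and 0.51, 0.40, 0.45 and 0.14 in Tsc2flox/flox samples, with the order turned around and 1 pair of samples overlapping. This pair of probes was chosen after the values were seen, and its difference was not tested.

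**Figure D3:**
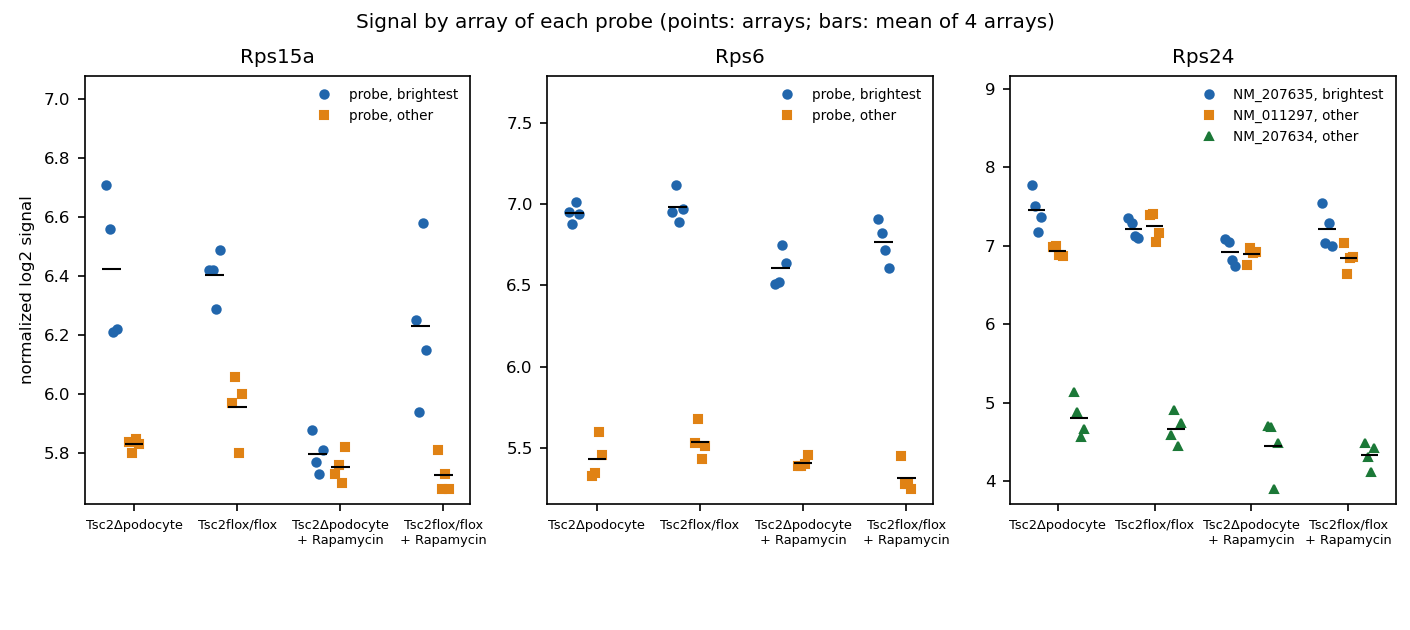
Normalized log2 signal of every detected probe of Rps15a (2 probes), Rps6 (2 probes) and Rps24 (3 probes, named by RefSeq transcript) on each array, by group, with bars at the mean of 4 arrays. The brightest probes of Rps15a and Rps6 are lowest in Tsc2Δpodocyte + Rapamycin samples while their other probes change by 0.07 and 0.03 on the log2 scale between the same groups, and the Rps24 probes of NM_207635 and NM_011297 move in opposite directions between the untreated genotypes.

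Between the genotypes after rapamycin no ribosomal protein gene passed the test either. The count was 0 of 75 in each direction with limma and 0 with the methods' t-test (7 and 8 at an unadjusted p under 0.05), against 6.2% of all genes called higher and 4.97% lower and 27.3% at an unadjusted p under 0.05. The median log2 fold change was -0.02, against 0.01 over all genes, with 0.01 under median centring and the deposited values and -0.10 under quantile normalization. In this comparison 72 of the 75 intervals lay inside a 1.5-fold change.

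Rps15a, of the small subunit, had the smallest p. It read 5.88, 5.77, 5.73 and 5.81 in Tsc2Δpodocyte + Rapamycin and 6.25, 5.94, 6.58 and 6.15 in Tsc2flox/flox + Rapamycin samples, which gave -0.43 on the log2 scale (standard error 0.135, adjusted p = 0.0555; exact permutation test, two-sided, p = 0.0286, the smallest that 4 samples against 4 allow). The groups did not overlap, but its other probe had a log2 fold change of 0.03 (adjusted p = 0.831). The brightest probe passed with quantile normalization (-0.53, adjusted p = 0.022), with normexp background correction (-0.66, adjusted p = 0.0115) and without treated Tsc2flox/flox replicate 2 (-0.53, adjusted p = 0.0262).

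On the other side stood Rpl39, Rps28, Rpl32, Rpl21, Rpl7a and Rpl41, with log2 fold changes of 0.33, 0.28, 0.24, 0.21, 0.20 and 0.15. Rps28, a small protein near the mRNA exit channel of the small subunit, read 7.12, 7.16, 6.91 and 6.98 in Tsc2Δpodocyte + Rapamycin and 6.86, 6.70, 6.76 and 6.74 in Tsc2flox/flox + Rapamycin samples (adjusted p = 0.0581). Its groups did not overlap, and with the deposited values it passed at a log2 fold change of 0.30 (adjusted p = 0.0453), while its other probe had 0.05 (adjusted p = 0.774). Rpl39, a short protein lining the exit tunnel of the large subunit, read 7.2, 6.93, 7.13 and 7.12 against 6.78, 6.89, 6.68 and 6.69 (adjusted p = 0.121), and its 4 other probes had log2 fold changes of -0.01, 0.01, -0.17 and -0.04. Groups that did not overlap were found for Rpl39, Rps28 and Rpl41 in the upward and Rps15a in the downward direction, against 10.7% and 7.49% of all genes. With normexp background correction Rps28 (0.57, adjusted p = 0.00111), Rpl39 (0.55, adjusted p = 0.0129), Rpl32 (0.43, adjusted p = 0.00482) and Rpl21 (0.37, adjusted p = 0.0182) passed. Without treated Tsc2flox/flox replicate 1, Rpl32 (0.30, adjusted p = 0.045) and Rpl7a (0.28, adjusted p = 0.0498) passed.

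The difference between the genotype effects with and without rapamycin was tested directly. Of the 75 genes 0 passed this interaction test with limma, as did 0.0% of all genes; 5 of the 75 and 7.39% of all genes had an unadjusted p under 0.05. The genotype log2 fold change was lower after rapamycin by 0.53 for the brightest Rps24 probe (interaction -0.53, 95% interval -0.97 to -0.09, adjusted p = 0.646), with -0.45 for Rps15a and -0.37 for Rpl13a. It was higher for Rpl39 (0.36), Rpl21 (0.30), Rpl7a (0.30), Rpl10a (0.24), Rpl32 (0.24) and Rpl15 (0.18), and lower for Rps18 (-0.24), Rps21 (-0.19) and Rplp0 (-0.18), none of which passed. Further probes often disagreed: the interaction was 0.37 (NM_011297) and -0.03 (NM_207634) for Rps24 and 0.16 for the other Rps15a probe. The other Rpl39 probes had 0.01, 0.08, -0.35 and 0.06. In 22 of the 43 genes with several probes the interaction differed in sign between probes. The smallest adjusted p of the family was 0.642, for Rpl21. The interaction intervals of 70 of the 75 genes lay inside a 1.5-fold change.

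Samples from rapamycin-treated mice had slightly lower ribosomal protein signals than untreated samples of the same genotype on this scale. In Tsc2flox/flox cells 67 of the 75 log2 fold changes were negative, with a median of -0.10 against 0.00 over all genes, and in Tsc2Δpodocyte cells 59 were negative, with a median of -0.08 against 0.01, which turned to 0.05 under quantile normalization. In Tsc2flox/flox cells the median was -0.11 with normexp background correction. With quantile normalization it was only -0.01, and 42 of the 75 values were negative. The 75th percentile, the deposited values and median centring gave the same distance from the median over all genes, -0.104, so they are not separate readings. These comparisons set 1 slide and age against the other, and the endothelial marker signal moved with them. The summed signal of 8 endothelial markers ranged from 2.77 to 5.93 and from 2.50 to 6.33 in untreated Tsc2Δpodocyte and Tsc2flox/flox samples and from 1.65 to 2.56 and from 1.90 to 3.35 in treated ones, with a median log2 fold change of -2.08 and -2.0 and 0 of 8 passing. Its part in the ribosomal protein values was not tested.

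In Tsc2flox/flox cells 0 of the 75 genes passed with limma and 0 with the methods' t-test (11 and 12 at an unadjusted p under 0.05, the first against 15.9% of all genes), and 0.106% and 0.0567% of all genes were called higher and lower. Rpl21 had the smallest p: it read 5.94, 5.81, 5.68 and 5.66 with rapamycin and 6.09, 6.24, 6.02 and 6.09 without (log2 fold change -0.34, adjusted p = 0.0946). Rpl39 (-0.41), Rps28 (-0.32), Rps4x (-0.31), Rpl32 (-0.27), Rps7 (-0.26), Rpl6 (-0.23) and Rps29 (-0.16) also had groups that did not overlap. In all, 9 genes were lower and 0 higher without overlap, against 5.21% and 5.53% of all genes. Further probes of these genes moved less: -0.18, -0.16, 0.10 and -0.06 for Rpl39 and -0.12 for Rps28. Those of Rps29 had -0.04 and 0.12, and those of Rpl6 -0.08 and -0.15. In 9 of the 43 genes with several probes the probes differed in sign here. With normexp background correction 6 of the 75 genes were called lower in this comparison, against 1.61% of all genes, and with a trended and robust prior 1.

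In Tsc2Δpodocyte cells 2 of the 75 genes were lower with rapamycin at an adjusted p under 0.05 and 0 higher, against 1.53% and 1.97% of all genes, and 19 had an unadjusted p under 0.05, against 24.2%. Rps15a was the only 1 of them past a 1.5-fold change, against 0.865% of all genes lower by that rule. It read 5.88, 5.77, 5.73 and 5.81 with rapamycin and 6.71, 6.56, 6.21 and 6.22 without, a signal that fell by 35.2% (log2 fold change -0.63, standard error 0.135, adjusted p = 0.0283; exact permutation test, two-sided, p = 0.0286). Rps6 read 6.51, 6.52, 6.75 and 6.64 with rapamycin and 6.95, 6.88, 7.01 and 6.94 without, a signal that fell by 21.1% (log2 fold change -0.34, standard error 0.085, adjusted p = 0.0438; exact permutation test, two-sided, p = 0.0286). For both genes the 4 treated samples lay below all untreated ones. Any such separation of 4 against 4 gives this permutation p, the smallest possible. The genes were picked from these same values, so it adds no separate support. The other probe of each gene did not pass: Rps15a had -0.07 (adjusted p = 0.563) and Rps6 -0.03 (adjusted p = 0.885) there.

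These 2 calls did not hold under every setting. With quantile normalization neither gene passed (-0.46 and -0.19), and 4 others, Rpl7a, Rpl15, Rpl10a and Rpl36, were called higher, at 0.43, 0.36, 0.31 and 0.27, against 2.06% of all genes under that scaling. The count of 2 fell to 0 without untreated Tsc2Δpodocyte replicate 1 or 2 or treated Tsc2Δpodocyte replicate 1, 2 or 4, and to 1 without untreated replicate 4 or treated replicate 3. The genes next in p that are named here were Rps24 (-0.53, adjusted p = 0.059), Rpl13a (-0.39, adjusted p = 0.0897) and Rpl4 (-0.34), while Rpl7a and Rpl15 had the highest values, 0.26 and 0.20, ahead of Rpl10a (0.14) and Rps16 (0.13). Groups without overlap were found for 12 genes in the downward and 3 in the upward direction, against 6.41% and 8.09% of all genes. The small-subunit genes had a median of -0.14 with 4 of 30 positive, and the large-subunit genes of -0.07 with 12 of 45 positive; this difference was not tested.

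**Figure D4:**
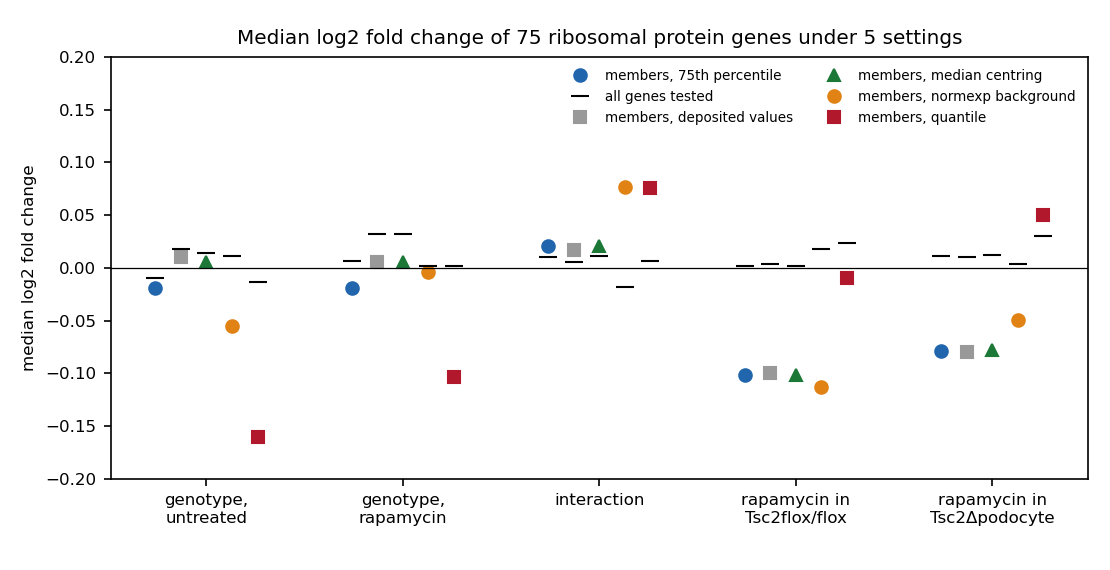
Median log2 fold change of the 75 ribosomal protein genes in 5 comparisons under 5 settings (coloured points) with the median of all genes tested under the same setting (black dashes). The points of the 75th percentile, the deposited values and median centring lie within 0.03 of each other in every comparison, whereas the quantile points lie at -0.16 in the untreated genotype comparison and at 0.05 for rapamycin in Tsc2Δpodocyte cells, where the other 4 lie between -0.08 and -0.05.

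Genes with and without a pyrimidine start had similar medians. In the untreated genotype comparison the 13 such genes had a median log2 fold change of 0.02, and the 42 tested genes with an annotated start that lacks it had -0.03. After rapamycin the genotype medians were -0.02 and -0.02, for rapamycin in Tsc2flox/flox cells -0.05 and -0.10, and for rapamycin in Tsc2Δpodocyte cells -0.08 and -0.12. The ranges overlapped in all of these, and no test was made. Since a start annotated a few bases off would hide a run, genes without it may also be TOP messages. The split therefore cannot tell whether a TOP start matters for these levels.

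The other parts of the cytosolic ribosome, like the named family, gave no call between the genotypes. Of 12 listed genes outside the naming rule 8 were tested, and 0 passed in any of the 5 comparisons. In untreated cells the log2 fold change was -0.07 for Fau and -0.04 for Rack1 (a scaffold on the small subunit). The largest value was 0.55, for Rps4l (adjusted p = 0.0748).

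Of 23 tested TOP messages outside the ribosome 0 rose and 2 fell with the deletion in untreated cells, against 10.3% and 9.2% of all genes, with a median of -0.07. Eif4b, a helper of the helicase that opens 5′ ends of mRNAs and a substrate of S6 kinase, read 3.20, 3.25, 3.31 and 3.20 in Tsc2Δpodocyte and 3.54, 3.57, 3.45 and 3.65 in Tsc2flox/flox samples (log2 fold change -0.31, standard error 0.07, adjusted p = 0.00752). After rapamycin it had -0.23 (adjusted p = 0.0482), a call that was lost in each fit without 1 array except that without treated Tsc2Δpodocyte replicate 2, and the value became 0.01 with normexp background correction and -0.08 (adjusted p = 0.629) with its probes averaged. Hnrnpa1, an RNA-binding protein, had -0.47 (adjusted p = 0.032) in untreated cells. This Hnrnpa1 call was lost with only the arrays compared (adjusted p = 0.0592), with the methods' t-test (adjusted p = 0.0889) and in several fits without 1 array. With rapamycin in Tsc2Δpodocyte cells 2 of the 23 rose, Snhg1 (0.41) and Eif4b (0.27), and 2 fell, Naca (-0.43) and Vim (-0.59), against 1.97% and 1.53% of all genes. All 4 calls were lost with only the arrays compared and with the methods' t-test, and leaving out 1 array ended that of Eif4b each time, that of Snhg1 unless treated Tsc2Δpodocyte replicate 2 was the one left out, and those of Naca and Vim unless it was untreated Tsc2Δpodocyte replicate 3. With its probes averaged Eif4b had 0.15 (adjusted p = 0.348).

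Among 23 genes that act on TOP translation, 2 rose and 3 fell in untreated Tsc2Δpodocyte cells, against 10.3% and 9.2% of all genes. The rises were Larp1b, a relative of the TOP repressor, at 0.72 (adjusted p = 0.0128) and Eef2k, the kinase that inhibits elongation, at 0.59 (adjusted p = 0.0273), and the falls were Tsc2 itself, Pdcd4 (-0.51) and Tia1 (-0.35). The calls of Eef2k, Pdcd4 and Tia1 were each lost without the filter on dim probes and in several fits without 1 array. With the methods' t-test those of Eef2k (adjusted p = 0.0706) and Pdcd4 (adjusted p = 0.0942) were also lost. Larp1, the repressor, had -0.13 (95% interval -0.30 to 0.04) and Mtor 0.14 (-0.12 to 0.41). After rapamycin 2 of the 23 were higher in Tsc2Δpodocyte cells, Eef2k (0.56, adjusted p = 0.0487) and Eif4ebp1, and 1 lower, Tsc2, against 6.2% and 4.97% of all genes. Eef2k had 0.32 (adjusted p = 0.223) with normexp background correction, and its call was lost in each fit without 1 array except that without treated Tsc2Δpodocyte replicate 2. Eif4ebp1, which encodes the repressor of cap-dependent translation that mTORC1 inactivates, read 5.37, 5.4, 5.5 and 5.37 against 4.95, 4.86, 4.70 and 4.82 (log2 fold change 0.58, standard error 0.09, adjusted p = 0.00238).

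Of 15 genes that drive ribosomal protein transcription or watch over ribosomes, 1 rose and 2 fell in untreated Tsc2Δpodocyte cells, against 10.3% and 9.2% of all genes. Mycn, which encodes N-MYC, a driver of ribosome production, read -1.80, -2.68, -1.55 and -2.28 in Tsc2Δpodocyte and 0.65, 0.68, 0.45 and 1.21 in Tsc2flox/flox samples (log2 fold change -2.83, standard error 0.38, adjusted p = 0.000365), a 7.10-fold difference. Myc had -0.59 (adjusted p = 0.0373) and Zbtb7a 0.30 (adjusted p = 0.0398). Both calls were lost with only the arrays compared (adjusted p = 0.062 and 0.0756), with the methods' t-test and in most fits without 1 array: Myc passed without replicate 3 or 4 of Tsc2Δpodocyte or replicate 3 of Tsc2flox/flox, and Zbtb7a without replicate 3 of either. After rapamycin Mycn was again lower (-1.67, adjusted p = 0.0154; 0.0616 with only the arrays compared), whereas Myc did not pass. The ribosomal protein genes themselves, listed above, had no call in either of these comparisons.

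The mitochondrial ribosome, built from a separate set of nuclear genes, offers a comparison of similar size. Of 78 tested genes 4 rose and 2 fell with the deletion in untreated cells, against 10.3% and 9.2% of all genes, and 9 rose and 0 fell after rapamycin, against 6.2% and 4.97%, with median log2 fold changes of 0.05 and 0.16 against -0.02 and -0.02 for the cytosolic family. The rises after rapamycin included Mrpl14 (0.37), Mrps18a (0.36), Mrpl30 (0.33) and Mrps23 (0.33). Mrpl14 also rose in untreated cells (0.54, adjusted p = 0.000976), where Mrpl9 (-0.43) and Mrpl3 (-0.29) fell. For the interaction 0 of 78 passed. In all 5 comparisons the median of the cytosolic family lay below that of the mitochondrial one, and the difference between the families was not tested.

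**Figure D5:**
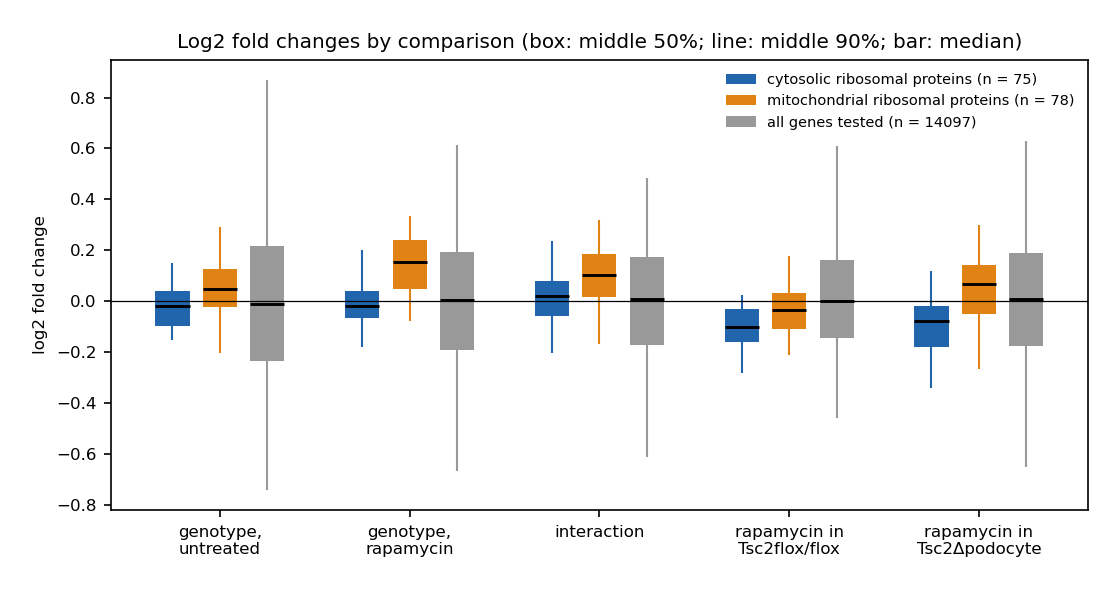
Log2 fold changes of the 75 cytosolic ribosomal protein genes (blue), the 78 mitochondrial ones (orange) and all 14097 genes tested (grey) in 5 comparisons; boxes span the quartiles, lines run from percentile 5 to percentile 95, and black bars mark medians, all on the scale of the 75th percentile. The blue boxes are narrower than the grey ones, with medians of -0.02 in both genotype comparisons and of -0.10 and -0.08 for rapamycin, the last of which turned to 0.05 with quantile normalization.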

How the data were processed

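Total RNA of 16 samples was hybridised to Agilent one-colour 8x60K mouse arrays. The deposited scanner files hold intensity values, which the authors obtained with Agilent Feature Extraction 10.7.3.1 (background-subtracted, linear scale). The deposited series table holds log2 values that, judged from the values themselves, were shifted to each array's 75th percentile and centred per probe on the median; each column correlated at 0.9997 or more with the scanner values brought to the same centring, and these values served only as an alternative.

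Each spot's intensity was divided by the 75th percentile of its array and taken to log2, leaving out control and outlier spots. Of 62976 spots on an array, 28696 to 32918 were well above background, and the 75th percentile lay between 349 and 468 intensity units. Tests covered probes that the scanner software called well above background throughout at least 1 group (27582 probes, 14097 genes; symbols from accessions through RefSeq). limma 3.58.1 in R 4.3.3 fitted 4 group means over 16 arrays with empirical Bayes moderation, and p-values were adjusted by the Benjamini-Hochberg method over all probes tested. A gene was called at an adjusted p under 0.05, and the methods' added threshold of 1.5-fold was passed by 1 of the called ribosomal protein genes, Rps15a. Counts over all genes use 1 probe per gene. The fit was tested on simulated data. The methods name no test for the arrays, so the methods' t-test is that of their general statistics. The array number limits precision.

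Genes named are those with the smallest p (up to 12) or the 6 largest rises and falls per comparison, the 5 brightest and dimmest, 15 with known roles, and up to 4 per other list. The ribosomal protein genes and all lists were chosen with earlier results of these data known. Settings tried besides these were normexp background correction (offset 50, on median signals), quantile normalization, the deposited values, a looser and a stricter filter on dim probes, the t-test, only the arrays compared, the mean over a gene's probes, a replicate block, a trended robust prior, each array left out and, chosen after the data were seen, median centring. No genome was used. A few genes are not reported here by name and are left out of the plots that label single genes; counts and medians include them.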

Additional observations from a re-analysis of the deposited data

Results flagged for a closer look

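In groups of 4, a sample was singled out when its gap to the nearest other, divided by the range of the group, exceeded Dixon's critical value. Over 304 groups of 4 (75 genes and their median, in 4 groups) this happened 13 times, and chance gives about 1 in 20. Rps4x, an X-linked gene of the small subunit, was lowest in Tsc2Δpodocyte + Rapamycin replicate 2, 4.95 against 5.76 to 5.91 in the other 3 (ratio 0.847). In the same group Rpl12 (0.87), Rpl38 (0.917) and Rps19 (0.842) each had 1 high sample, at 7.48, 7.58 and 7.68. Among Tsc2flox/flox samples Rpl15 had 1 low value, 6.65 against 6.86 to 6.89 (0.881), and Rpl6 1 high value, 6.79 against 6.53 to 6.56 (0.915). Among Tsc2flox/flox + Rapamycin samples Rpl23a (0.847), Rpl36a (0.894), Rps12 (0.833) and Rps2 (0.903) each had 1 high sample, and among Tsc2Δpodocyte samples Rpl23a (0.835) and Rps13 (0.868) did, as did the median over the 75 genes (0.868), where the values of 7.09 and 7.02 to 7.03 differ little.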

How the results depend on the processing

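The count of ribosomal protein genes that passed was recomputed under each alternative. In the untreated genotype comparison it rose from 0 to 17 (all lower) with quantile normalization, 3 (all lower) with normexp background correction and 1 (lower) with probes of a gene averaged. In the genotype comparison after rapamycin it rose from 0 to 1 with quantile normalization, the deposited values, median centring (chosen after the data were seen), the stricter filter and the replicate block, to 8 (5 higher, 3 lower) with normexp and to 3 with a trended and robust prior, and leaving out 1 array gave 0 to 2. For rapamycin in Tsc2flox/flox cells it rose from 0 to 6 with normexp and 1 with the trended prior. For rapamycin in Tsc2Δpodocyte cells it went from 2 lower to 4 higher with quantile normalization, 9 lower with normexp, 4 lower with the stricter filter and with the trended prior, 1 with probes of a gene averaged, and 0 without a filter, with only the arrays compared and with the t-test, and leaving out 1 array gave 0 to 2. With quantile normalization 9.71% of all genes were lower in the untreated genotype comparison and 5.51% after rapamycin. For rapamycin in Tsc2Δpodocyte cells 2.06% were higher under it. With normexp the shares lower were 10.8%, 4.15%, 1.61% and 4.11% in the order above, with 6.38% higher between the treated genotypes. Between these, 7.09% and 7.16% were higher with the deposited values and median centring. Other settings' shares are not given here. The interaction count of the family was 0 under each alternative. The median log2 fold change moved by more than the spread between arrays only with quantile normalization: to -0.16 and -0.103 for the genotype untreated and after rapamycin, and to 0.05 for rapamycin in Tsc2Δpodocyte cells. Of the named results, Eif4b after rapamycin took the other sign with normexp (0.01, adjusted p = 0.964). Why these settings differ was not tested.

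Untreated samples with the same replicate number did not deviate together (correlations of -0.296 to -0.006). Of the treated ones, replicates 2, 3 and 4 did (0.464, 0.174 and 0.289) and replicate 1 did not (-0.023). Not every pair passed and 3 of 16 arrays correlated best with an array of their own number, so the numbers were not taken to pair samples. With the replicate block the count for rapamycin in Tsc2Δpodocyte cells was 3, and Rps28 passed between the treated genotypes (adjusted p = 0.038). Under the block Rps6 did not pass there (adjusted p = 0.0734). Outside the family, it took Myc (0.0648), Zbtb7a (0.0532), Hnrnpa1 (0.0585) and Pdcd4 (0.0583) in untreated cells, Eef2k (0.066) and Eif4b (0.0788) between the treated genotypes and Eif4b (0.0782) and Vim (0.0567) with rapamycin in Tsc2Δpodocyte cells past an adjusted p of 0.05. Each group has 4 arrays, which limits precision, and small changes of a single ribosomal protein gene could go undetected. Slide, age and drug cannot be told apart, nor can array row and genotype.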
